A study of Homo sapiens with 12 samples.

Results

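Mucins are the large, heavily O-glycosylated proteins that coat ductal and other epithelia, and 10 of their genes were followed here in sorted pancreatic cancer cells. The genes were taken by symbol from a table of 23346 genes. There were 7 that encode membrane-bound mucins (*MUC1*, *MUC4*, *MUC13*, *MUC15*, *MUC16*, *MUC17* and *MUC20*) and 3 that encode secreted mucins (*MUC2*, *MUC5B* and *MUC6*). RNA-seq was carried out on SW1990 and CFPAC-1, both established human pancreatic adenocarcinoma lines, after antibody staining with GCTM-5 and cell sorting. The groups were GCTM-5 negative SW1990, GCTM-5 positive SW1990, GCTM-5 negative CFPAC-1 and GCTM-5 positive CFPAC-1, with 3 samples in each and 12 in all. Cells of intermediate staining were not gated into either fraction, no further treatment is named, and the study covers 2 lines. The samples came from triplicate sorts that are not said to be separate cultures, so p-values measure only the spread between these samples. Markers of duct epithelium were expressed in both lines, at a summed level of 1640 to 8300 RPKM. Most of that sum came from the keratin genes *KRT7*, *KRT8*, *KRT18* and *KRT19*. *CFTR* was at 0 in all SW1990 samples and had at most 5 reads in any CFPAC-1 library.

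Membrane-bound mucins span the cell membrane with a glycosylated outer stalk and a short tail inside the cell, and they lubricate the duct surface and take part in signalling. Secreted gel-forming mucins lack that anchor, link end to end and build the mucous layer. GCTM-5 recognises an antigen complex related to CA 19-9, the sialyl Lewis A sugar of pancreatic ducts and their tumours. Transcript levels do not show whether any of these mucins is part of that complex. By immunoblot the paper detected MUC1, MUC2 and MUC16 protein in SW1990 culture supernatant but not in the purified complex. *MUC16* encodes the CA125 antigen, and *MUC4* and *MUC16* are known for their expression in pancreatic adenocarcinoma. The sorted fractions were compared to ask which mucin transcripts differ with the antigen, and whether membrane-bound and secreted members differ together in the 2 lines.

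The feature that makes these proteins mucins is a tandem repeat rich in serine and threonine, the residues that carry O-glycans. Repeat units from the GRCh37 coding sequence, or for *MUC4* a stretch of repeats, are printed for the 4 members with reads in which they are short. They show where O-glycans can attach, with serine and threonine codons in capitals. The *MUC1* unit of 60 bases is at chr1:155161023-155161082 on the minus strand, in a run of 310 bases that makes up 21.8% of the coding sequence. The *MUC4* stretch of 96 bases is at chr3:195505812-195505907 on the minus strand, in a run of 7625 bases or 47.0% of the coding sequence. The search chose this length, but the stretch is itself a shorter sequence repeated with few changes, so the basic unit is shorter than 96 bases. The *MUC20* unit of 57 bases is at chr3:195452069-195452125 on the plus strand and has 9 identical copies in a run of 763 bases. The *MUC5B* unit of 87 bases is at chr11:1271368-1271454 on the plus strand, in a run of 356 bases. Runs were found at 80% identity, and the copy number in a cell line may differ from that of the reference genome.
MUC1: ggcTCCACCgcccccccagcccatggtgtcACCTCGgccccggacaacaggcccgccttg
MUC4: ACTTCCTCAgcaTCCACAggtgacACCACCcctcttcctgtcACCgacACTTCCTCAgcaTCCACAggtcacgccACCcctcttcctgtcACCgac
MUC20: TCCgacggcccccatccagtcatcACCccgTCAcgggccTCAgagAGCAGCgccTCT
MUC5B: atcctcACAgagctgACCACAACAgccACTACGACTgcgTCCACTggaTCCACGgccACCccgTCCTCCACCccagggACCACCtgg
These stretches lie inside coding exons. No run was found by this search in the reference coding sequences of *MUC2*, *MUC6*, *MUC13* and *MUC15*. Repeats that are less alike than 80% or too few would be missed, so this does not show that these genes lack a repeat. Serine and threonine made up 15.1% (*MUC2*) to 45.6% (*MUC17*) of the proteins encoded by these reference sequences. The *MUC2* sequence searched had 4182 coding bases, whereas the gene length recovered from the deposited values was 8623 bases. That reference sequence may be incomplete, so the share of *MUC2* and its lack of a run are uncertain. How reads that match several places were counted is not given in the sources used here, so the levels of genes with long repeats are uncertain to that extent.

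On GRCh37 the genes fall on 5 chromosomes, and several are neighbours. *MUC4* (chr3:195473636-195538844, minus strand) and *MUC20* (chr3:195447755-195467994, plus strand) lie 5641 bases apart. *MUC6* (chr11:1012823-1036718, minus strand), *MUC2* (chr11:1074875-1104416, plus strand) and *MUC5B* (chr11:1244296-1283402, plus strand) lie within 0.271 Mb of chromosome 11. *MUC1* is at chr1:155158300-155162707 and *MUC16* at chr19:8959520-9121066, both on the minus strand. The remaining members are *MUC13* (chr3:124624289-124672663, minus strand), *MUC15* (chr11:26580579-26593810, minus strand) and *MUC17* (chr7:100663353-100702140, plus strand). *MUC20* overlaps *MUC20-OT1* on its own strand and has a pseudogene, *MUC20P1*, and *MUC5B* has the antisense gene *MUC5B-AS1*, so reads could have been shared within these pairs.

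Expression is given as the authors' RPKM, reads per kilobase of gene scaled to library size, which allows genes to be compared by level. Library totals recovered from the values were 9969697 to 26159330 reads, with the lowest in GCTM-5 positive CFPAC-1 replicate 3. Of the 10 genes, 8 passed the filter of a mean of at least 0.1 RPKM over all samples. *MUC15* and *MUC17*, both membrane-bound, were listed at 0 in all 12 samples, whereas none of 10 housekeeping genes was at 0 in any. At these depths a count of 0 allows up to 3 reads in a library.

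*MUC1* had the highest level of the 10 genes in every sample and made up 84.3% to 94.8% of their summed RPKM. In GCTM-5 negative SW1990 cells the order after *MUC1* was *MUC16*, *MUC6*, *MUC20*, *MUC13*, *MUC2*, *MUC5B* and *MUC4*, with means from 0.867 down to 0.0593 RPKM. In positive SW1990 cells it was *MUC20*, *MUC16*, *MUC6*, *MUC2*, *MUC4*, *MUC5B* and *MUC13*, from 24.5 down to 0.242 RPKM. Many neighbours in these SW1990 orders had overlapping samples, and in the negative cells this held for each adjacent pair from *MUC16* to *MUC2*. In negative CFPAC-1 cells *MUC4* was second, followed by *MUC20*, *MUC5B*, *MUC16*, *MUC2*, *MUC13* and *MUC6*, from 49.3 down to 0.0618 RPKM. In positive CFPAC-1 cells the order was *MUC4*, *MUC20*, *MUC16*, *MUC5B*, *MUC13*, *MUC6* and *MUC2*, from 20.9 down to 0.0656 RPKM. *MUC1*, *MUC4* and *MUC20* stood apart from each other and from every lower gene in both CFPAC-1 fractions, while *MUC16* and *MUC5B* overlapped in both.

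**Figure D1:**
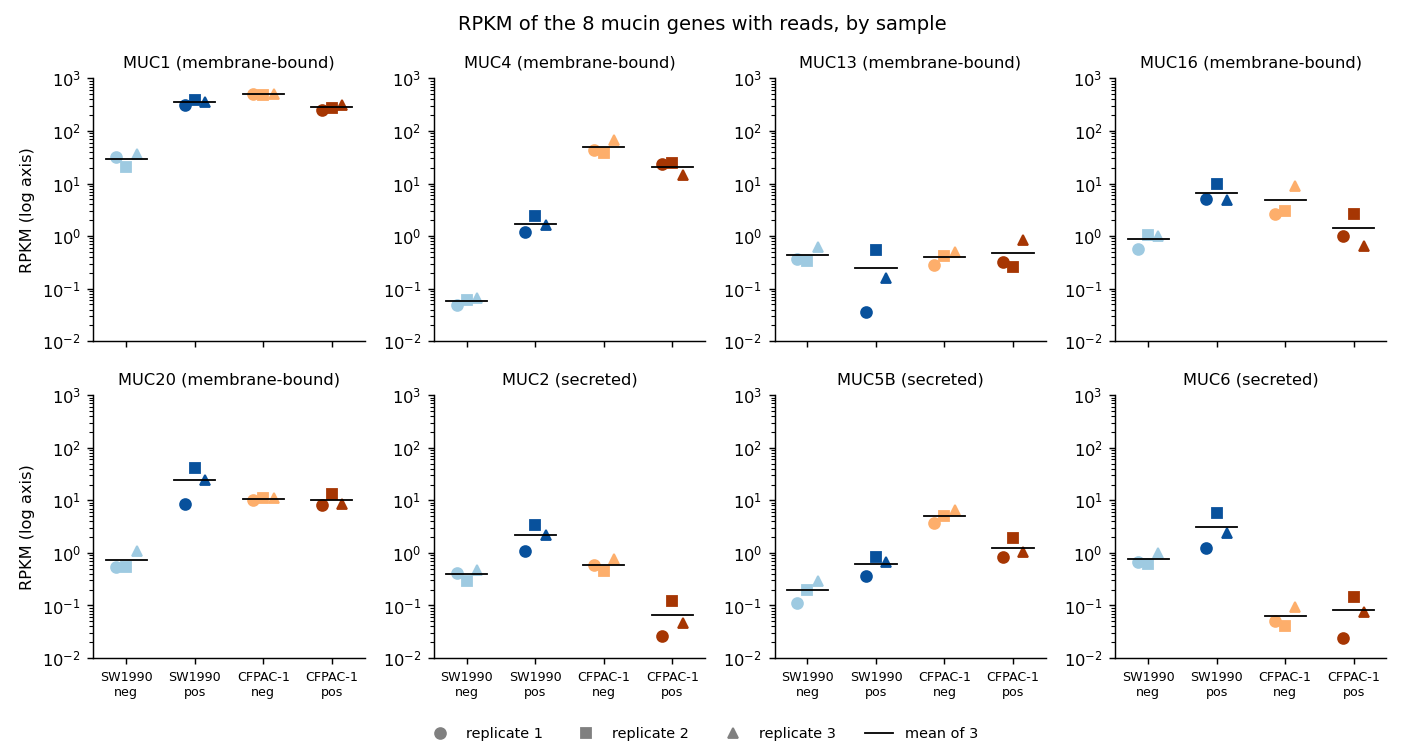
RPKM (log axis) of the 8 mucin genes with reads in each of the 12 samples, with a symbol for each replicate and a line at the mean of 3. In SW1990 all genes shown except *MUC13* sit higher in the positive samples, whereas in CFPAC-1 *MUC1*, *MUC4*, *MUC2* and *MUC5B* sit lower in the positive samples.

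The first comparison asked which mucin genes differed between GCTM-5 positive and negative SW1990 cells. The criterion for a call was a limma fold change of more than 2 together with an unadjusted p under 0.01. Of the 8 genes tested, 7 rose in positive cells and none fell, where 4.59% of the 16236 genes tested rose and 7.48% fell. None of the 8 was lower at an unadjusted p under 0.05 either, and limma's voom on recovered reads called the same number, 7 higher and 0 lower. The shares of all genes at that p or with voom were not taken. The 7 genes comprised 4 of 5 membrane-bound members (median log2 fold change 3.46) and 3 of 3 secreted members (median 1.65), against a median of -0.04 for all genes. Fewer cells making a transcript and less transcript per cell cannot be told apart in such bulk samples.

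Among the membrane-bound members, *MUC1* is the widely expressed epithelial mucin. Its level was 32.1, 20.4 and 36.5 RPKM in negative and 313, 393 and 350 RPKM in positive SW1990 samples. All positive samples lay far above all negative ones. The change was 12.1-fold, a log2 fold change of 3.60 (SE 0.18, adjusted p = 1.58e-07), and it moved *MUC1* from places 2023 to 3799 in the ranking of genes by RPKM to places 85 to 109.

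*MUC4* encodes a membrane-bound mucin that pairs with the receptor ERBB2. It was close to undetected in negative SW1990 cells, at 0.0492, 0.0614 and 0.0673 RPKM from 17 to 24 reads. Positive cells held 1.17, 2.36 and 1.63 RPKM. The groups did not overlap, and the log2 fold change was 3.46 (SE 0.28, adjusted p = 2.8e-06) with a pseudocount of 0.1 RPKM, which lies above the negative level. It was 1.34 with a pseudocount of 1 and 4.59 with 0.01. *MUC20*, its neighbour on chromosome 3 and a mucin that binds the MET receptor, had the largest change of the 8, at 4.69 (SE 0.46, adjusted p = 1.22e-05). Its level was 0.542, 0.530 and 1.11 RPKM in negative and 8.36, 41.1 and 24.1 RPKM in positive samples. The positive samples differed several-fold among themselves, yet the lowest was above every negative sample.

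*MUC16* encodes the longest of the 10 proteins. It measured 0.570, 1.03 and 1.00 RPKM in negative and 5.04, 9.62 and 4.88 RPKM in positive SW1990 samples, without overlap. The log2 fold change was 2.74 (SE 0.52, adjusted p = 0.00193). *MUC13*, a membrane-bound mucin of the gut surface, was the exception in the class. It stood at 0.372, 0.329 and 0.629 RPKM in negative and 0.0358, 0.533 and 0.157 RPKM in positive samples, from 1 to 16 reads. The groups overlapped, the log2 fold change was -0.91 (95% confidence interval -2.04 to 0.22, adjusted p = 0.224), and without positive replicate 2 it was -1.50 and was called (adjusted p = 0.0339).

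The secreted members also rose in SW1990, from low levels. *MUC2*, the gel-forming mucin of the intestine, measured 0.412, 0.294 and 0.479 RPKM in negative and 1.10, 3.41 and 2.15 RPKM in positive samples. The groups did not overlap, and the log2 fold change was 2.11 (SE 0.37, adjusted p = 0.00114), or 1.14 with a pseudocount of 1. *MUC5B*, a gel-forming mucin of airway and other glands, measured 0.111, 0.194 and 0.287 RPKM against 0.357, 0.842 and 0.668 RPKM, and *MUC6*, the gel-forming mucin of gastric and pancreatic gland cells, 0.675, 0.628 and 1.00 RPKM against 1.24, 5.73 and 2.35 RPKM. Positive samples lay above negative ones for both. The log2 fold changes were 1.26 for *MUC5B* (SE 0.37, adjusted p = 0.0222) and 1.65 for *MUC6* (SE 0.46, adjusted p = 0.0178). Both calls were lost without positive replicate 2 (1.04 and 1.08), negative replicate 1 (1.03 and 1.58) or negative replicate 2 (1.27 and 1.53), and that of *MUC5B* also without positive replicate 3 (1.18). A pseudocount of 1 gave 0.43 for *MUC5B*, which was not called, and 1.07 for *MUC6*.

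Positive SW1990 replicate 2 held the highest value of its group for 8 of the 8 genes tested, and replicate 1 the lowest for 7 of 8. In the other groups 1 replicate likewise held the highest value for 6 or 7 of the 8. The members' levels were thus not independent of each other within a group.

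The second comparison asked the same of CFPAC-1. Of the 8 genes tested, 4 fell in GCTM-5 positive cells and none rose, where 4.13% of all genes tested fell and 5.65% rose. After median centring of the samples these all-gene shares were 5.28% and 4.46%, so that of all called genes the share that rose went from 57.7% to 45.8%. At an unadjusted p under 0.05, 5 of the 8 were lower and 0 higher, and voom on recovered reads called 4 lower and 0 higher. The shares of all genes at that p or with voom were not taken. The genes that fell were 2 of 5 membrane-bound members (median log2 fold change -0.82) and 2 of 3 secreted members (median -1.96), against 0.05 for all genes. The count was 2 of 8 without negative replicate 3 and also without positive replicate 3, the shallowest library, since *MUC4* and *MUC16* then missed the criterion.

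The secreted members in CFPAC-1 differed among themselves. *MUC2* measured 0.584, 0.451 and 0.756 RPKM in negative and 0.0266, 0.124 and 0.0465 RPKM in positive samples, the latter from 4 to 20 reads. *MUC5B* measured 3.65, 4.95 and 6.50 RPKM against 0.834, 1.91 and 1.02 RPKM. Neither gene's groups overlapped. The log2 fold changes were -2.09 for *MUC2* (SE 0.37, adjusted p = 0.00134) and -1.96 for *MUC5B* (SE 0.37, adjusted p = 0.00168). That of *MUC2* was -0.58 with a pseudocount of 1, where it was not called (adjusted p = 0.04), and -3.19 with 0.01. *MUC6* stayed near the limit of the depth in both fractions of CFPAC-1, at 0.0239 to 0.146 RPKM from 5 to 22 reads, and its log2 fold change was 0.13 (95% confidence interval -0.87 to 1.12).

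Of the membrane-bound members, *MUC4* measured 42.7, 38.1 and 67.2 RPKM in negative and 23.4, 24.7 and 14.5 RPKM in positive CFPAC-1 samples. The groups did not overlap and the log2 fold change was -1.23 (SE 0.28, adjusted p = 0.00532). Without negative replicate 3 or positive replicate 3 it was -0.99 in either case, just short of 2-fold. *MUC16* measured 2.62, 3.06 and 8.97 RPKM against 0.988, 2.67 and 0.652 RPKM. Here positive replicate 2 lay among the negative samples, and the log2 fold change of -1.70 (SE 0.52, adjusted p = 0.0246) met the criterion but lost it in 7 of 22 alternatives. Among these were the fits without negative replicate 3 (-1.16, adjusted p = 0.106), positive replicate 3 (-1.30, adjusted p = 0.0901), positive replicate 1 (-1.57, adjusted p = 0.0763) and negative SW1990 replicate 3, which alters only the pooled spread (-1.70, adjusted p = 0.0334), and over all its alternatives the adjusted p ranged from 0.00585 to 0.106.

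*MUC1* in CFPAC-1 measured 501, 478 and 511 RPKM in negative and 255, 276 and 312 RPKM in positive samples. All positive samples were below all negative ones. The positive level was 0.565 of the negative one (log2 fold change -0.82, SE 0.18, adjusted p = 0.00406), which is short of the 2-fold criterion, so *MUC1* was not called. *MUC20* measured 10.1, 11.3 and 11.0 RPKM in negative and 8.15, 13.5 and 8.71 RPKM in positive samples, with overlap. Its log2 fold change of -0.13 had a 95% confidence interval of -1.13 to 0.88. *MUC13* lay between 0.259 and 0.837 RPKM in both fractions and its change was 0.09 (95% confidence interval -1.04 to 1.22), with the sign turning under median centring (-0.01).

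**Figure D2:**
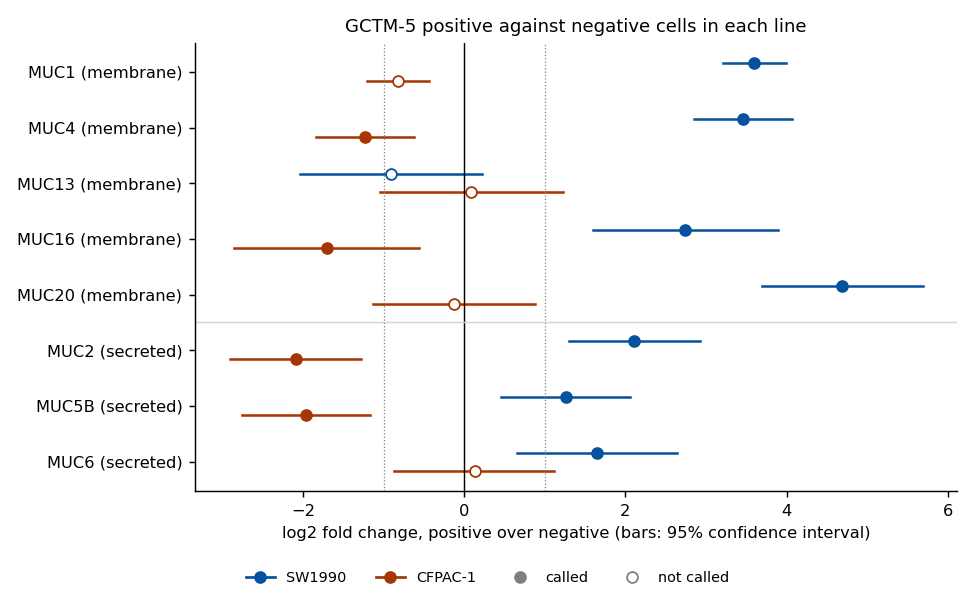
Log2 fold change of GCTM-5 positive over negative cells for the 8 mucin genes tested, in SW1990 (blue) and CFPAC-1 (brown), with bars for the 95% confidence interval and filled points for genes called. The SW1990 points lie at or above 1.26 except *MUC13*, and no CFPAC-1 point lies above 0.13.

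The change with GCTM-5 differed between the lines for 6 of the 8 genes at an adjusted p under 0.05, with the log2 change in each case higher in SW1990. Over all genes tested, 9.16% had a higher and 17.8% a lower change in SW1990, and they were 12.2% and 12.2% after median centring of the samples. That centring moved the median difference of all genes from -0.15 to 0. The differences, as log2 change in SW1990 minus that in CFPAC-1, were 4.43 for *MUC1* (adjusted p = 2.61e-06), 4.69 for *MUC4* (adjusted p = 1.13e-05), 4.82 for *MUC20* (adjusted p = 0.000268) and 4.44 for *MUC16* (adjusted p = 0.00109). Among secreted members they were 4.21 for *MUC2* (adjusted p = 0.00017) and 3.22 for *MUC5B* (adjusted p = 0.000841). With a pseudocount of 1 the differences were 2.53 for *MUC4*, 1.72 for *MUC2* and 1.85 for *MUC5B*, and each was still called. *MUC1*, *MUC4*, *MUC2* and *MUC5B* were higher in every positive sample in SW1990 and lower in every positive sample in CFPAC-1. The difference for *MUC6* was 1.52 (95% confidence interval 0.11 to 2.93, adjusted p = 0.104), which was called without positive SW1990 replicate 1 (2.02, adjusted p = 0.0206), and that for *MUC13* was -1.01 (-2.60 to 0.59, adjusted p = 0.341).

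The lines were then compared with each other. In GCTM-5 negative cells, SW1990 was lower than CFPAC-1 in 5 of the 8 genes and higher in 1, where 15% of all genes tested were lower and 21.9% higher. After median centring these shares were 18.1% and 17.7%, and the median of all genes went from 0.19 to 0.01. The 1 higher gene of 8 is no more than the share over all genes. The largest gap was in *MUC4*, with a mean of 0.0593 RPKM in SW1990 and 49.3 ± 15.6 RPKM (SD, n = 3) in CFPAC-1 (log2 fold change -8.24, SE 0.28, adjusted p = 3.27e-10). *MUC1* (-4.10), *MUC5B* (-4.11), *MUC20* (-3.79) and *MUC16* (-2.18) were also lower in SW1990, with *MUC5B* at -2.31 under a pseudocount of 1. *MUC6* was the member that was higher, at 0.769 RPKM on average against 0.0618 RPKM (log2 fold change 2.41, SE 0.46, adjusted p = 0.00049). The CFPAC-1 value rests on 7 to 15 reads a library, and with a pseudocount of 1 the change was 0.73 and was not called (adjusted p = 0.0371). *MUC2* (-0.49, 95% confidence interval -1.31 to 0.33) and *MUC13* (0.11, -1.02 to 1.24) were not called, and the sign for *MUC13* turned under median centring (-0.07).

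In GCTM-5 positive cells the pattern between the lines was another one. SW1990 was higher in 3 of the 8 genes and lower in 1, where 14.8% of all genes tested were higher and 13.7% lower. The 1 lower gene of 8 is near the share over all genes. *MUC6* (3.93, adjusted p = 1.28e-05), *MUC2* (3.72, adjusted p = 4.01e-06) and *MUC16* (2.26, adjusted p = 0.00257) were higher in SW1990, and the samples of the lines did not overlap for any of them. With a pseudocount of 1, *MUC6* (1.77) and *MUC2* (1.53) were still called. *MUC4* remained lower in SW1990 (-3.54, adjusted p = 5.13e-07), at 1.72 ± 0.603 RPKM against 20.9 ± 5.59 RPKM (SD, n = 3). *MUC1* stood at 352 ± 39.9 RPKM in SW1990 and 281 ± 28.6 RPKM in CFPAC-1 (SD, n = 3), a log2 difference of 0.32 with a 95% confidence interval of -0.07 to 0.71. *MUC20* (1.03, adjusted p = 0.0686) and *MUC5B* (-0.89, adjusted p = 0.0503) missed the criterion. *MUC20* was called without positive SW1990 replicate 1 (1.66, adjusted p = 0.00103), and *MUC13* (-0.89, adjusted p = 0.153) without positive SW1990 replicate 2 (-1.48, adjusted p = 0.0161).

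**Figure D3:**
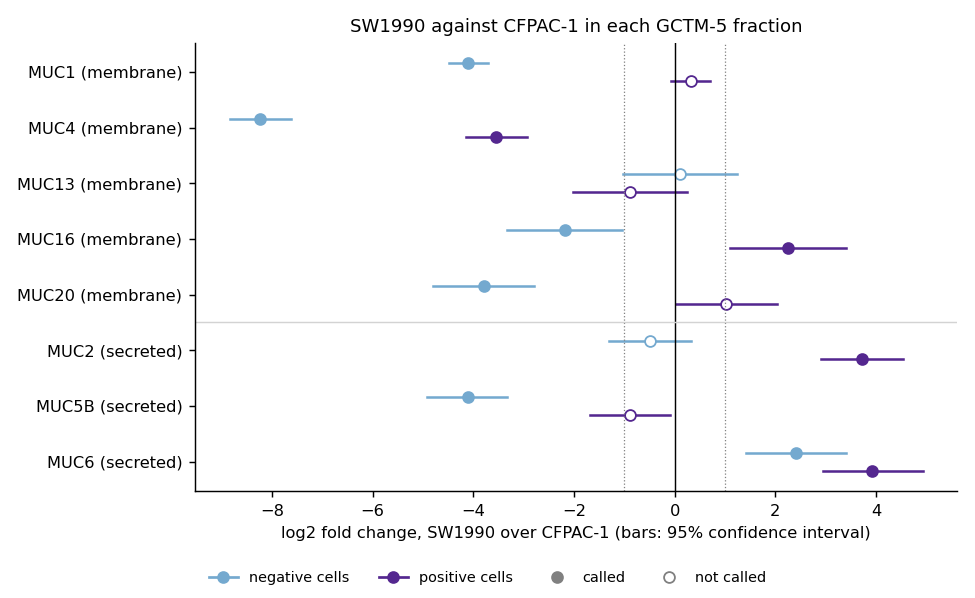
Log2 fold change of SW1990 over CFPAC-1 for the 8 mucin genes tested, in GCTM-5 negative (light blue) and GCTM-5 positive (purple) cells, with bars for the 95% confidence interval and filled points for genes called. *MUC4* lies below 0 in both fractions (-8.24 and -3.54) and *MUC6* above 0 in both (2.41 and 3.93).

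Among these 10 genes alone, the membrane-bound members made up most of the summed level in every sample. Other mucin genes are outside both sums. Their sum was 33.7, 22.3 and 39.3 RPKM in negative SW1990, 328, 447 and 381 RPKM in positive SW1990, 556, 530 and 598 RPKM in negative CFPAC-1 and 288, 317 and 336 RPKM in positive CFPAC-1. The secreted sum was 1.20, 1.12 and 1.77 RPKM in negative SW1990, 2.69, 9.99 and 5.16 RPKM in positive SW1990, 4.28, 5.44 and 7.35 RPKM in negative CFPAC-1 and 0.885, 2.18 and 1.15 RPKM in positive CFPAC-1. Both sums were higher in every positive sample in SW1990 and lower in every positive sample in CFPAC-1.

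The secreted share of the summed level of the 10 genes was lower in every positive than in every negative sample of the same line, in both lines. It was 3.44% to 4.77% in negative and 0.815% to 2.19% in positive SW1990 cells. In CFPAC-1 it was 0.764% to 1.21% in the negative fraction and 0.306% to 0.682% in the positive one. Because *MUC1* dominates the sum, the share was also taken without it. It was then 36.4% to 43.9% against 14.4% to 15.7% in SW1990, and 7.14% to 9.33% against 2.62% to 5.02% in CFPAC-1. These shares are descriptions of the 12 samples and were not tested. Without *MUC1*, the membrane-bound sum in positive SW1990 cells was mostly *MUC20*, at 24.5 of 33.0 RPKM on average. In CFPAC-1 it was mostly *MUC4*, at 49.3 of 65.4 RPKM in negative and 20.9 of 32.9 RPKM in positive cells. The share without these genes was not taken, so the lower share in positive cells may rest on single genes.

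**Figure D4:**
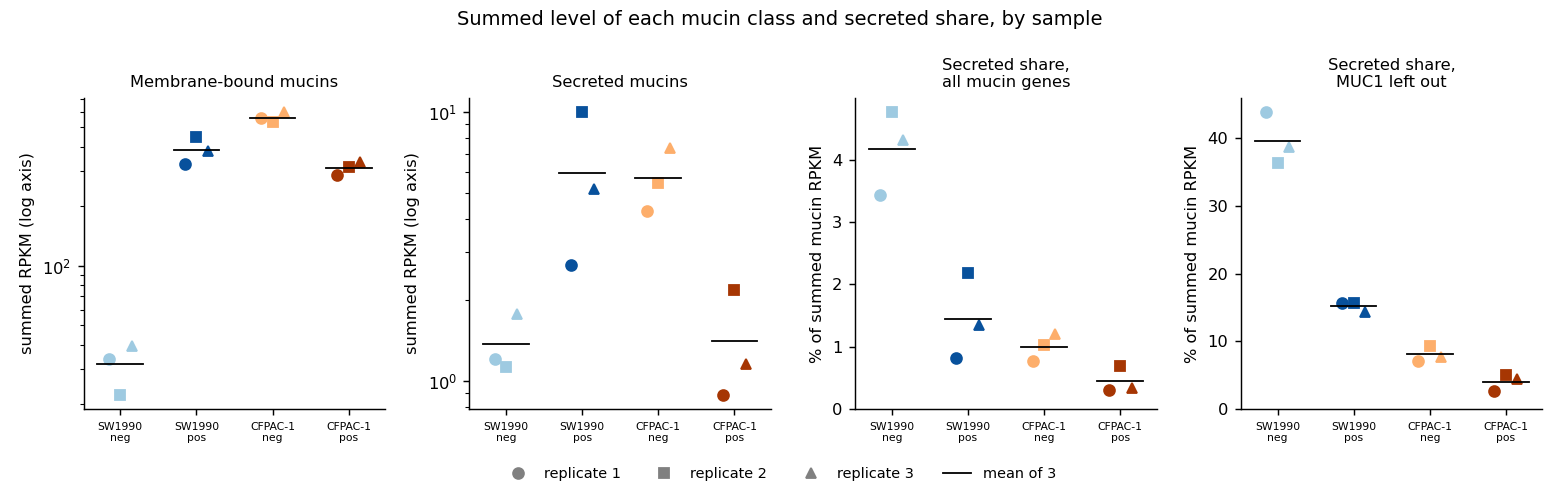
Summed RPKM (log axes) of the 7 membrane-bound and the 3 secreted mucin genes, and the secreted share in % with and without *MUC1* (linear axes from 0), in each of the 12 samples with a line at the mean of 3. The sums are higher in positive SW1990 but lower in positive CFPAC-1 samples, and the secreted share is lower in the positive samples of both lines.

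Further mucin-type genes were taken from a list of 11, of which 3 passed the filter. *CD164*, a sialomucin, was steady at group means of 154 to 180 RPKM, with log2 changes of -0.18 in SW1990 and -0.19 in CFPAC-1. *MCAM*, also called MUC18, an adhesion molecule of the immunoglobulin family, moved against the members. It fell in positive SW1990 cells from 0.680 to 0.188 RPKM (log2 fold change -1.43, adjusted p = 0.0156, not called with voom) and rose in positive CFPAC-1 cells from 1.43 to 6.88 RPKM (2.19, adjusted p = 0.00124).

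Genes of the mucous cell programme, from the transcription factors to the trefoil peptides that are secreted with mucins, were also examined. In SW1990, 5 of the 13 tested rose and 1 fell, with a median log2 fold change of 0.68, where 4.59% of all genes rose and 7.48% fell. In CFPAC-1, 1 rose and 2 fell, with a median of -0.18, where 5.65% of all genes rose and 4.13% fell, so the single rise is near the share over all genes. *TFF1*, a trefoil peptide, was called higher in both lines, but from few reads. It had 0 reads in all negative SW1990 samples and 10 to 17 in positive ones, and its mean in CFPAC-1 went from 1.32 to 2.78 RPKM (1.01, at the edge of the criterion and not called with voom). *CREB3L1*, a transcription factor of secretory cells, fell in both lines, from 9.26 to 1.05 RPKM in SW1990 (log2 fold change -3.08, adjusted p = 2.55e-05), while in CFPAC-1 it went from 4.93 to 1.16 RPKM (-2.13, adjusted p = 0.000568). The other genes called in SW1990 were *SPDEF* (2.54), *AGR2* (2.70), *ERN2* (1.66) and *TFF2* (1.87), and in CFPAC-1 *FOXA3* (-1.56), all named after their values were seen.

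Enzymes that build O-glycans on mucins rose in 6 of 21 cases in SW1990 (median 0.19) and in 0 of 21 in CFPAC-1 (median 0.20), where none fell in either line. The shares of all genes that rose were 4.59% and 5.65%. The 6 were *GALNT3* (2.51), *GALNT5* (1.18) and *GALNT12* (1.51), which start the chains, and *GCNT3* (1.66), *B3GNT3* (3.45) and *ST6GALNAC1* (1.72), which branch, extend or cap them, named after their values were seen. In limma at an unadjusted p under 0.05, without the fold criterion, the enzymes with higher levels in positive cells numbered 8 in each line, and those with lower levels 2 in SW1990 but 4 in CFPAC-1. Limma's voom on the recovered reads called 5 in SW1990 and 0 in CFPAC-1. The shares of all genes at this p or with voom were not taken, so these counts have no background beside them. Of 11 receptors, enzymes and adaptors that act with membrane-bound mucins, *ERBB3*, named after its values were seen, was the one called gene in each line. Its log2 fold change was 2.50 in SW1990 (adjusted p = 9.72e-06) and -1.07 in CFPAC-1 (adjusted p = 0.00445). Over all genes tested, 4.59% rose in SW1990 and 4.13% fell in CFPAC-1, so 1 gene of 11 is near the share over all genes. The difference between the lines was called higher in SW1990 for 7 of 13 mucous genes, 7 of 21 O-glycan enzymes and 6 of 11 mucin partners, and lower for 0, 3 and 0, where 9.16% of all genes were called higher and 17.8% lower (12.2% and 12.2% after median centring). The 3 enzymes called lower are near that share.

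Markers of epithelium and of other cell types moved beside the mucin genes in SW1990. The summed level of 9 duct epithelium markers was 1640 to 1990 RPKM in negative and 4400 to 4890 RPKM in positive SW1990 cells. Of the 8 tested, 5 were called higher and 1 lower, where 4.59% of all genes rose and 7.48% fell. The single lower marker is near the share over all genes. The sum of 8 fibroblast markers was 14.2 to 24.9 RPKM in negative and 4.96 to 6.39 RPKM in positive SW1990 cells. *LUM* was the largest part of it, at 13.2 and 2.43 RPKM on average. *COL1A2*, *COL3A1* and *DCN* were at 0 in positive cells and had at most 5 reads a library in negative ones. The sum of 3 endothelium markers was 14.8 to 18.8 RPKM against 1.47 to 2.05 RPKM, nearly all of it *CDH5* (15.6 and 1.33 RPKM on average), while *PECAM1* (0.717 and 0.363 RPKM) was not called. In CFPAC-1 the epithelial sum was 5560 to 6320 RPKM in negative and 6800 to 8300 RPKM in positive cells. Of its 8 markers tested, 0 were called by limma, where 5.65% of all genes rose and 4.13% fell, and 0 by voom. At an unadjusted p under 0.05 in limma 3 were higher, and the share of all genes at that p was not taken. The CFPAC-1 fibroblast sum was 2.83 to 3.08 RPKM in negative and 2.89 to 3.50 RPKM in positive cells, with *COL3A1*, *DCN* and *FAP* at 0. The 5 leukocyte markers summed to 1.18 to 3.31 RPKM in SW1990, where *CD3E* was at 0, and to 53.1 to 87.2 RPKM in CFPAC-1, where *LYZ* made up most of the sum (means of 64.1 and 56.6 RPKM) and *PTPRC* was at 0 in negative cells. *CD14*, the marker among them that was called in both lines, fell from 1.47 to 0.287 RPKM in positive SW1990 and from 9.23 to 3.19 RPKM in positive CFPAC-1 cells. Acinar and endocrine markers did not exceed a sum of 0.295 RPKM. The part of these markers in the mucin differences was not tested.

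The genes whose log2 levels followed a member most closely over the 12 samples were sought among 13266 genes. For *MUC1*, the membrane-bound member with the highest mean, they were *RAB25* (Pearson r = 0.986), *GPRC5A* (0.985) and *ESAM* (0.984). The group means of *RAB25*, for example, were 4.75, 82.3, 140.0 and 107 RPKM in negative SW1990, positive SW1990, negative CFPAC-1 and positive CFPAC-1. For *MUC5B*, the secreted member with the highest mean, they included *BCL2L14* (0.983) and *CORO2A* (0.979). These values describe samples that share 4 groups and were not tested.

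RefSeq promoter sequences on GRCh38.p14 were available for 6 of the 10 members, and the 250 bases before the start were searched on both strands for the E-box CACCTG, which factors of the ZEB and SNAI families bind, the GC box GGGCGG and TATAAA. *MUC1* and *MUC4* are shown because both are membrane-bound members whose samples separated in opposite directions in the 2 lines. Capitals mark the E-box. The *MUC1* window is chr1:155192916-155193165 and the *MUC4* window is chr3:195811930-195812179, both on the minus strand.
MUC1: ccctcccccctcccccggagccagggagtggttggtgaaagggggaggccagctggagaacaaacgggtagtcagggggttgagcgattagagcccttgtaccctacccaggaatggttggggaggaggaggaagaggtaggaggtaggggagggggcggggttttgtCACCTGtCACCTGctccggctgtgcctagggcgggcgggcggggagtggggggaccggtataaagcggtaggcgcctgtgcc
MUC4: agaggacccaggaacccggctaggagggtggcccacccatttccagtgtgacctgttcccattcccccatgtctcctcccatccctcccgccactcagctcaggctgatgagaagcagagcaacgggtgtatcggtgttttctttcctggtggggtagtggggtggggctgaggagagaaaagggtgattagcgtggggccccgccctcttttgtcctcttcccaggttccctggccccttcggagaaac
The *MUC1* window held 2 E-boxes, which begin 82 and 75 bases before the start and do not overlap, with 4 GC boxes and 1 TATAAA. The *MUC4* window held no E-box and 1 GC box. An E-box was present in 17.5% of 35116 promoter windows of this length, and 2 or more in 2.53%. GC boxes were present in 42.6% and TATAAA in 10.7% of the windows. Windows of *MUC2*, *MUC13* and *MUC17* held no E-box, and *MUC16* had 1 at a second annotated start and none at the first. *MUC5B*, *MUC6*, *MUC15* and *MUC20* were not searched.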

How the data were processed

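Paired-end RNA-seq reads of 12 samples were aligned to hg19/GRCh37 by the authors, who quantified and scaled them by library size and gene length with QuasR, and the deposited values are the resulting RPKM. The gene annotation, the use of strand and the tool version are not given in the sources used here. The paper names a TruSeq kit and the labels a strand-specific SureSelect kit. Samples were grouped by line and sorted fraction from their labels. A mucin gene named in the paper was not analysed here.

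Of 23346 genes, the 16236 with a mean of at least 0.1 RPKM entered the fit, which was made on log2(RPKM + 0.1) with limma 3.58.1 in R 4.3.3 as 4 group means sharing one estimate of spread, with eBayes and an intensity trend, so fold changes of genes near or below 0.1 RPKM are understated and depend on this pseudocount. The paper used TCC, which was not used here. Calls needed over 2-fold and an unadjusted p under 0.01, the thresholds of the paper, and differences between lines an adjusted p (Benjamini-Hochberg over all genes) under 0.05. An exact permutation of 3 against 3 samples cannot go below 0.1 and was not used. The fit was tested on simulated data. Library totals and reads were recovered as the whole numbers that single-exon gene lengths in GENCODE (mapped to GRCh37) imply, to within 0.01 read. Recovered reads can be too low by a common factor, as for 4 of 216 single-exon genes seen in at least 9 samples, so reads for *MUC13* are uncertain. Python 3.11.15, pandas 2.3.3, numpy 2.4.6 and matplotlib 3.10.9 were used for the other steps.

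The members and lists were chosen with earlier results of these data known. Named beyond the members were list genes called in both lines in one direction, mucin-type genes with a mean of at least 1 RPKM and the 3 genes most correlated with the leading member of each class, of which 1 is not reported here. Further list genes were named after their values were seen, as the text says. Alternatives were other pseudocounts, filters and scalings, each line fitted alone, a replicate block, no trend, voom and leaving out each sample.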

Additional observations from a re-analysis of the deposited data

Results flagged for a closer look

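The change with GCTM-5 differed between SW1990 and CFPAC-1 for 6 of the 8 mucin genes tested when the difference itself was tested in limma over all genes. Over all genes tested, 9.16% had a higher and 17.8% a lower change in SW1990, or 12.2% and 12.2% after median centring. As log2 change in SW1990 minus log2 change in CFPAC-1, the values of the 6 genes were 4.43 for *MUC1*, 4.69 for *MUC4*, 4.44 for *MUC16*, 4.82 for *MUC20*, 4.21 for *MUC2* and 3.22 for *MUC5B*, with adjusted p from 2.61e-06 to 0.00109. Of these, *MUC1*, *MUC4*, *MUC2* and *MUC5B* had no overlap of samples in either line, whereas the CFPAC-1 groups of *MUC16* and *MUC20* overlapped. With pseudocounts of 1 and 0.01 the values were 2.53 and 5.83 for *MUC4*, 1.72 and 5.53 for *MUC2* and 1.85 and 3.66 for *MUC5B*.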

How the results depend on the processing

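Over 22 alternative settings, 830 member values were recomputed. Of these, 794 kept their direction and side of the criterion, 22 lost a call, 4 gained one and 10 turned in sign, the last in genes that were not called. The count of members called in CFPAC-1 was 4, and 2 to 4 with 1 sample left out. In SW1990 it was 5 to 7 over all settings, for the difference between lines 5 to 7, and for the lines compared in negative and positive cells 5 to 6 and 3 to 5. *MUC13* in CFPAC-1 turned to -0.01 with median centring and -0.03 with voom, and *MUC13* between lines in negative cells to -0.07 with median centring and -0.06 with quantile normalization. With 1 sample left out these ranged from -0.33 to 0.36 and from -0.12 to 0.26, *MUC20* in CFPAC-1 from -0.35 to 0.01 and *MUC6* in CFPAC-1 from -0.12 to 0.38. A pseudocount of 1 ended the calls of *MUC5B* in SW1990 (0.43, adjusted p = 0.135), *MUC2* in CFPAC-1 (-0.58, adjusted p = 0.04) and *MUC6* between lines in negative cells (0.73, adjusted p = 0.0371), and a pseudocount of 0.01 that of *MUC6* in SW1990 (1.75, adjusted p = 0.0638). With each line fitted alone, *MUC5B* and *MUC6* in SW1990 (adjusted p = 0.0502 and 0.0853) and *MUC16* in CFPAC-1 (adjusted p = 0.105) lost their calls, and *MUC16* also did without the trend (adjusted p = 0.0367). The cause was not tested. Whether the replicate numbers shared by the groups pair the samples is not given in the sources used here. Same-numbered samples of a line correlated at 0.0163 to 0.185 in SW1990 and at -0.0593 to 0.00126 in CFPAC-1. In SW1990 3 of 6 samples and in CFPAC-1 0 of 6 were closest to their own number. With 3 samples in each group these values cannot show whether the samples were paired. A replicate block left 7 members called in SW1990, 6 for the difference between lines and 3 in CFPAC-1, where *MUC16* (-1.70, adjusted p = 0.0427) was not called, and over all genes it gave 1961 and 1587 calls in place of 1961 and 1588. The filter of at least 1 RPKM left out *MUC2* and *MUC13*, and the difference between lines was not run with each line fitted alone. Depth limits *MUC13*, *MUC6* and positive *MUC2* in CFPAC-1 and *MUC4* in negative SW1990 cells, which rest on at most 24 reads a library.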
